A study of Mus musculus with 6 samples.

Results

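The proteasome genes examined here are the protein-coding genes of GENCODE M21 whose symbol starts with Psma, Psmb, Psmc, Psmd, Psme, Psmf or Psmg, with Psmb5 left out. The rule uses names only and found 49 of the 54393 genes listed. They were measured by RNA sequencing in the tibialis anterior, a fast muscle of the mouse lower leg, in 3 samples of adult wild-type (WT) mice and 3 of adult mice labelled Dock3 KO. Dock3 encodes an exchange factor that activates Rac. The titles of the WT samples read C57, the labels name no other allele or treatment, and how the Dock3 KO allele was made is not given in the sources used here. Libraries were stranded and made from total RNA after removal of ribosomal RNA. The labels call the samples muscles and do not say more of their origin, so that p-values measure only the spread between these samples, which may be technical.

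The proteasome is the protease that degrades proteins tagged with ubiquitin. Its 20S core is a barrel of alpha rings, which gate the entry, and beta rings, which carry the protease sites. The 19S particle caps the barrel: its ATPases unfold and thread the substrate, and its other subunits bind ubiquitin and remove it. Immune cells and cells exposed to interferon exchange the catalytic beta subunits for the immunoproteasome forms, and the PA28 and PA200 activators can take the place of the 19S particle. In skeletal muscle this system does much of the protein breakdown of atrophy.

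The authors' values are normalized counts per gene, which put the samples on a common scale. They summed to between 23520223 and 33393950 per sample, of which the proteasome genes made up 0.189% to 0.251%. Values of single samples are given in the order of WT replicates 1, 3 and 4 and Dock3 KO replicates 1, 2 and 3. Dock3 itself ranged from 118 to 169 in WT and from 1.54 to 22.4 in Dock3 KO. The markers of muscle fibres were high in all samples, the 8 of them summing to 1293510 to 1399590 in WT and 1286940 to 1462480 in Dock3 KO. Of the marker lists, which were chosen with earlier results of these data known, only that of fibroblasts had genes past the threshold. These were 2 of 4, beside 1.03% of all genes tested. The collagen genes Col1a1 (log2 difference 1.38, adjusted p 0.0228) and Col3a1 (0.87, adjusted p 0.0168, limma) were higher in Dock3 KO. The rest of that list did not pass: Pdgfra differed by 0.15 (adjusted p 0.722) and Dcn by -0.28 (adjusted p 0.654, limma), the opposite direction. Gm42418, an abundant transcript, took 13.4% and 14.5% of the values of Dock3 KO replicates 1 and 2 and 2.29% to 2.87% of the others, so that 2 of the 3 Dock3 KO libraries stand apart from the rest.

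No proteasome gene passed the test between genotypes. Of the 49 genes, 48 had a mean of at least 10 normalized counts and were tested, and 0 passed at the 0.05 level (limma, p-values adjusted by Benjamini-Hochberg over 16031 genes). Over all genes tested 1.03% passed, 0.443% higher and 0.586% lower in Dock3 KO. At an unadjusted p under 0.05 there were 2 of the 48, the proteasome inhibitor Psmf1 and the activator copy Psme2b, against 10.5% of all genes tested. The smallest adjusted p of the 48 was 0.244, for Psmf1 (limma). Under each of 18 alternative settings 0 proteasome genes passed. The smallest adjusted p among those settings was 0.126 (limma), for Psme2b with the replicate number as a block. Only replicate numbers 1 and 3 occur in both genotypes, so that fit compares those samples alone.

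The intervals show how large a change these samples leave room for. Differences are given as Dock3 KO minus WT on the scale of log2(normalized count + 1), on which changes of genes with low levels look smaller than they are. The median over the 48 genes was -0.05, with 19 above 0 and 29 below, beside -0.01 over all genes tested. The 95% interval of the difference lay within a 2-fold change in both directions for 43 of the 48 genes (64.1% of all genes tested) and within a 1.5-fold change for 35 (33.7% of all). The 5 genes with wider intervals were Psmb9, Psmb11, Psme2b, Psmg4 and Psmc3ip, whose group means lay between 8.52 and 68.0 normalized counts.

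**Figure D1:**
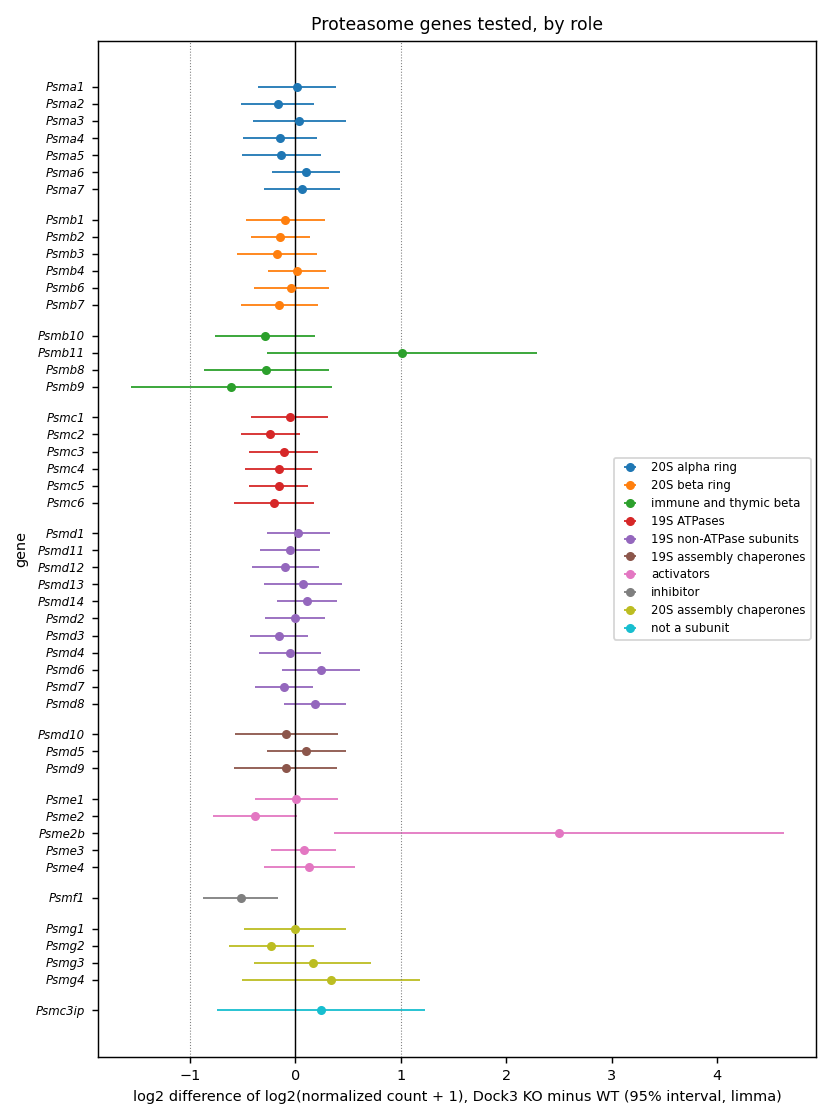
Log2 difference (Dock3 KO minus WT) of each of the 48 proteasome genes tested, on the horizontal axis, with its 95% interval from limma, grouped by role. Dotted lines mark a 2-fold change. The intervals of 46 genes cross 0 and those of Psmf1 and Psme2b do not.

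The alpha ring genes of the 20S core overlapped between the genotypes. All 7 alpha genes tested, Psma1 to Psma7, lay between a log2 difference of -0.17 (Psma2) and 0.10 (Psma6), with a median of 0.02 and a smallest adjusted p of 0.783 (limma). Psma6 measured 1374, 1415 and 1725 normalized counts in WT muscle, with 1796, 1618 and 1412 in Dock3 KO muscle. The groups overlap. Psma8, the alpha subunit of the testis, stood at 3.17, 3.23 and 0 in the WT muscles, against 0, 0 and 2.33 in the Dock3 KO muscles and was too low to test.

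Psma3, described for its copies after the values were seen, has a processed pseudogene, Gm13835 (chromosome 6, 31141979 to 31142663, minus strand, GRCm38), whose 685 bases match a Psma3 transcript with 0 mismatches. Psma3 measured 2238, 2626 and 2605 normalized counts in WT muscle, with 3095, 2972 and 1800 in Dock3 KO muscle. Gm13835 stood at 222, 0 and 345 in the WT muscles, against 0, 0 and 200 in the Dock3 KO muscles, so that each genotype has samples with and without it. How reads that match both were assigned is not given in the sources used here. With all 3 near-identical copies added, Psma3 averaged 2680 ± 249 in WT muscle and 2692 ± 602 in Dock3 KO muscle (SD, n = 3), a log2 difference of -0.02 against 0.04 for Psma3 alone. The exact permutation test on the sums gave p = 1.0 (two-sided).

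The constitutive beta subunits also overlapped between the groups. The 6 genes tested ranged from a log2 difference of -0.18 (Psmb3) to 0.01 (Psmb4), with a median of -0.12. Psmb6, which carries the caspase-like site, measured 1259, 1532 and 1747 normalized counts in WT muscle, with 1683, 1445 and 1278 in Dock3 KO muscle (log2 difference -0.04, 95% interval -0.40 to 0.32, limma). Psmb7, which carries the trypsin-like site, stood at 2914, 3099 and 3220 in the WT muscles, against 3229, 3062 and 2139 in the Dock3 KO muscles (log2 difference -0.15, 95% interval -0.52 to 0.21, limma). Dock3 KO replicate 3 lies below the other 5 samples for Psmb7.

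The immunoproteasome subunits Psmb9 and Psmb10 were less abundant in every sample than Psmb6 and Psmb7, the constitutive subunits they replace. Psmb9 (chromosome 17, 34181987 to 34187764) measured 61.2, 45.4 and 50.7 normalized counts in WT muscle, with 55.8, 17.0 and 39.9 in Dock3 KO muscle. Per kb of merged exons it stood at 1.51% to 2.53% of Psmb6 in WT and at 0.637% to 1.73% in Dock3 KO. The values of Dock3 KO replicate 2 are the lowest for both measures, and the other Dock3 KO values lie within the WT range or just below it.

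Psmb10, the immune counterpart of Psmb7, stood at 223, 178 and 158 normalized counts in the WT muscles, against 171, 124 and 160 in the Dock3 KO muscles. Per kb it stood at 9.90% to 15.4% of Psmb7 in WT and at 8.19% to 15.1% in Dock3 KO, so that the groups overlap. The mean log2 ratio differed by -0.57 for Psmb9 to Psmb6 and by -0.14 for Psmb10 to Psmb7, with exact two-sided permutation p-values of 0.6 and 0.7 (both 0.7 when adjusted over the 2 ratios; 3 against 3 samples cannot give less than 0.1). Without Dock3 KO replicate 2 the differences were -0.11 and 0.07, and without WT replicate 1 they were -0.33 and 0.03. Measured on the longest transcript in place of merged exons, Psmb9 was 0.990% to 1.65% of Psmb6 in WT, and the differences between genotypes are the same by construction.

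Psmb8, the immune form of the subunit left out of this list, lies beside Psmb9 on chromosome 17 (34197721 to 34201454) and measured 78.6, 94.4 and 87.4 normalized counts in WT muscle, with 89.998, 52.4 and 76.9 in Dock3 KO muscle. The log2 differences of Psmb8, Psmb9 and Psmb10 were -0.28, -0.61 and -0.29, each with a 95% interval that crosses 0 and adjusted p-values of 0.797, 0.700 and 0.716 (limma). Without Dock3 KO replicate 2 they were -0.056, -0.14 and -0.16, and without WT replicate 1 that of Psmb10 was -0.16. Psmb9 overlaps Tap1, and Psmb8 and Psmb10 overlap antisense genes, all on the opposite strand, and whether counting used strand is not given in the sources used here. Psmb11, the thymus form, stood at 11.6, 5.01 and 15.8 in the WT muscles, against 15.1, 34.5 and 17.2 in the Dock3 KO muscles (log2 difference 1.01, 95% interval -0.27 to 2.29, limma); it was 0.58 without WT replicate 3 and became 0.66 when Dock3 KO replicate 2 was left out.

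Interferon-induced and antigen-presentation genes, a list of 13, were measured in the same samples. Of the 13, 11 had a log2 difference below 0, with a median of -0.36; 0 had an adjusted p under 0.05 (1.03% of all genes tested), and 2, B2m and H2-K1, had an unadjusted p under it (10.5% of all; limma). Their summed level was 6493 to 6846 normalized counts in WT and 5281 to 5555 in Dock3 KO. B2m, H2-D1 and H2-K1 had the highest values and weigh most in that sum. The groups do not overlap for these genes, Ifit3 and Gbp2, all lower in Dock3 KO, beside 8.65% of all genes tested. They overlap for the rest of the list, and the differences of Isg15 and Nlrc5 were above 0. B2m, the light chain of MHC class I, measured 1480, 1499 and 1958 in WT muscle, with 1320, 1229 and 1115 in Dock3 KO muscle (adjusted p 0.318, limma). Tap1, the peptide transporter gene that overlaps Psmb9, stood at 126, 102 and 70.7 in the WT muscles, against 77.5, 59.3 and 74.1 in the Dock3 KO muscles, and its groups overlap.

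Of 12 leukocyte and macrophage markers, 10 were high enough to test, and the T-cell marker Cd3e, which was not, was listed at 0 in WT replicate 1. The 10 summed to 4267 to 5321 normalized counts in WT and 3625 to 5153 in Dock3 KO, with 3 of the 10 above 0 and 7 below. Their part in the immunoproteasome values was not tested. In whole muscle, fewer cells of a type and less RNA per cell cannot be told apart.

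**Figure D2:**
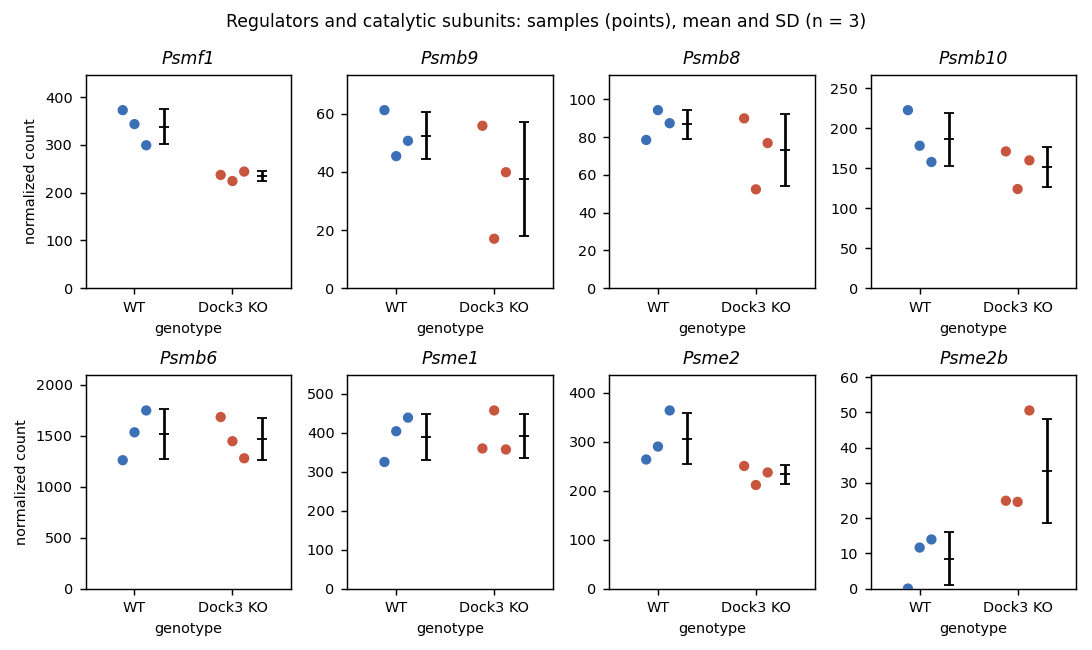
Normalized counts (vertical axis, from 0) of 8 proteasome genes in the WT (blue) and Dock3 KO (red) samples, with the mean and SD of 3 samples in black. The groups do not overlap for Psmf1, Psme2 and Psme2b and overlap for the other 5 genes.

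All 6 ATPases of the 19S particle had log2 differences below 0, from -0.24 (Psmc2) to -0.05 (Psmc1), with a median of -0.16 and 0 past the threshold. Over all genes tested, 8174 of 16031 lay below 0. Dock3 KO replicate 3 was the lowest sample for 4 of the 6 ATPases. Their median deviation from each gene's own mean (log2 scale) was -0.05, 0.15 and 0.18 in WT and 0.02, -0.03 and -0.22 in Dock3 KO. Psmc2 measured 1528, 1703 and 1800 normalized counts in WT muscle, with 1479, 1464 and 1321 in Dock3 KO muscle. Every Dock3 KO value lies below every WT value, and the log2 difference of -0.24 had a 95% interval of -0.52 to 0.04 and an adjusted p of 0.568 (limma). Psmc5 stood at 1077, 1284 and 1237 in the WT muscles, against 1096, 1092 and 1024 in the Dock3 KO muscles, with a log2 difference of -0.16, and its groups overlap. With the samples rescaled to the same total, the median of all genes tested moved from -0.01 to -0.28, so the differences are relative to that of the other genes. The symbol rule also takes in Psmc3ip, whose product acts in meiotic recombination and is no proteasome subunit. It was listed at 19.5 to 38.7 in WT and 21.4 to 53.3 in Dock3 KO.

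The 11 other 19S subunits were split, 5 above 0 and 6 below, with a median of -0.0038. Psmd6 measured 1632, 1716 and 1789 normalized counts in WT muscle, with 2271, 2351 and 1562 in Dock3 KO muscle. Replicates 1 and 2 of Dock3 KO lie above all WT samples and replicate 3 below them (log2 difference 0.25, 95% interval -0.12 to 0.61, limma). Replicates 1 and 2 are the ones with the large Gm42418 share, and with log2 Gm42418 as a covariate the difference was -0.17. That covariate is high only in these replicates, so the fit is close to replicate 3 alone against WT, where Psmd6 differed by -0.13. The level of Gm42418 and the identity of these replicates cannot be told apart. The difference of Psmd6 was 0.43 without Dock3 KO replicate 3, 0.14 without replicate 2 and 0.16 without replicate 1. Psmd8 stood at 2071, 2047 and 2543 in the WT muscles, against 2678, 2571 and 2303 in the Dock3 KO muscles (log2 difference 0.19). Psmd14, the enzyme that cuts ubiquitin chains off the substrate, measured 766, 762 and 741 in WT muscle, with 805, 899 and 751 in Dock3 KO muscle (log2 difference 0.11, 95% interval -0.18 to 0.40, limma). Psmd3, a lid subunit outside the rule for named genes and chosen because its groups do not overlap, stood at 1344, 1396 and 1588 in the WT muscles, against 1286, 1331 and 1265 in the Dock3 KO muscles (adjusted p 0.747, limma).

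The chaperones that assemble the particles overlapped between the genotypes. Psmd5, Psmd9 and Psmd10, which bind the ATPases before they join, had log2 differences from -0.09 to 0.10. Of the 20S chaperones, Psmg1 measured 108, 104 and 134 normalized counts in WT muscle, with 120, 98.8 and 125 in Dock3 KO muscle. Its partner Psmg2 stood at 295, 277 and 327 in the WT muscles, against 267, 297 and 209 in the Dock3 KO muscles (log2 difference -0.23, 95% interval -0.63 to 0.18, limma; -0.086 without Dock3 KO replicate 3). Psmg3 measured 93.2, 117 and 68.6 in WT muscle, with 108, 101 and 96.8 in Dock3 KO muscle. Psmg4, which works with Psmg3, stood at 32.9, 59.6 and 66.3 in the WT muscles, against 99.98, 45.8 and 58.2 in the Dock3 KO muscles, with a log2 difference of 0.34 and a 95% interval of -0.51 to 1.18 (limma). Without Dock3 KO replicate 1 the difference of Psmg4 was 0.024, and without WT replicate 1 it was 0.034. The groups overlap for all 4.

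Of the activators, PA200 (Psme4) and PA28-gamma (Psme3) overlapped between the genotypes. Psme4 stood at 7467, 4971 and 5730 normalized counts in the WT muscles, against 5417, 8319 and 6206 in the Dock3 KO muscles (log2 difference 0.13, 95% interval -0.30 to 0.56, limma). Per kb of merged exons Psme4 stood at 723 in WT, against 308 for Psme3 and 176 for Psme1. The tested constitutive 20S and 19S subunits ranged from 248 (Psmd13) to 1219 (Psma6), with Psmc1 at 722. On the longest transcript Psme4, Psmc1, Psme3 and Psme1 stood at 933, 877, 341 and 196. Psme3 measured 840, 897 and 988 in WT muscle, with 1073, 955 and 856 in Dock3 KO muscle (log2 difference 0.08, 95% interval -0.23 to 0.39, limma).

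Psme1 and Psme2 encode the alpha and beta subunits of PA28, which form a mixed ring on the 20S core, and they lie next to each other on chromosome 14 (55578123 to 55581529 on the plus strand and 55587441 to 55591113 on the minus strand). Psme1 stood at 325, 403 and 438 normalized counts in the WT muscles, against 359, 457 and 357 in the Dock3 KO muscles (log2 difference 0.01). Psme2 measured 264, 290 and 364 in WT muscle, with 250, 211 and 237 in Dock3 KO muscle. Every Dock3 KO value of Psme2 lies below every WT value, with a log2 difference of -0.38 (standard error 0.178, adjusted p 0.500, limma; -0.25 without WT replicate 4). The level of Psme2 as a share of that of Psme1, per kb and chosen after the values were seen, was 102%, 90.1% and 104% in WT and 87.3%, 58.1% and 83.3% in Dock3 KO (a description only). On the longest transcript the shares were 168%, 149% and 171% in WT and 144%, 95.8% and 137% in Dock3 KO, so which of both genes has the higher level depends on the length used.

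Psme2b (ENSMUSG00000078153) is a single-exon gene annotated as protein-coding whose sequence is nearly that of the spliced Psme2 transcript, which has 11 exons. Psme2b stood at 0, 11.6 and 13.9 normalized counts in the WT muscles, against 24.9, 24.6 and 50.6 in the Dock3 KO muscles, with the groups in the opposite order to those of Psme2. The log2 difference of Psme2b was 2.50 (standard error 0.955, unadjusted p 0.0260, adjusted p 0.372, limma), and lay between 1.24, without WT replicate 1, and 3.63 over 17 alternatives. The transcripts aligned over 794 bases with 5 differences, all in the coding part. These 5 bases alone separate reads of both genes within the alignment, and the longest run without a difference was 341 bases. Psme2b also overlaps Gm12185 and 9930111J21Rik1 on the same strand, so its values are uncertain. Added together, Psme2 and Psme2b averaged 314 ± 58.1 in WT muscle and 266 ± 26.9 in Dock3 KO muscle (SD, n = 3), a log2 difference of -0.23 against -0.38 for Psme2 alone. The sums were 264, 302 and 378 in WT and 275, 236 and 288 in Dock3 KO, so that the groups overlap (exact two-sided permutation p = 0.3).

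**Figure D3:**
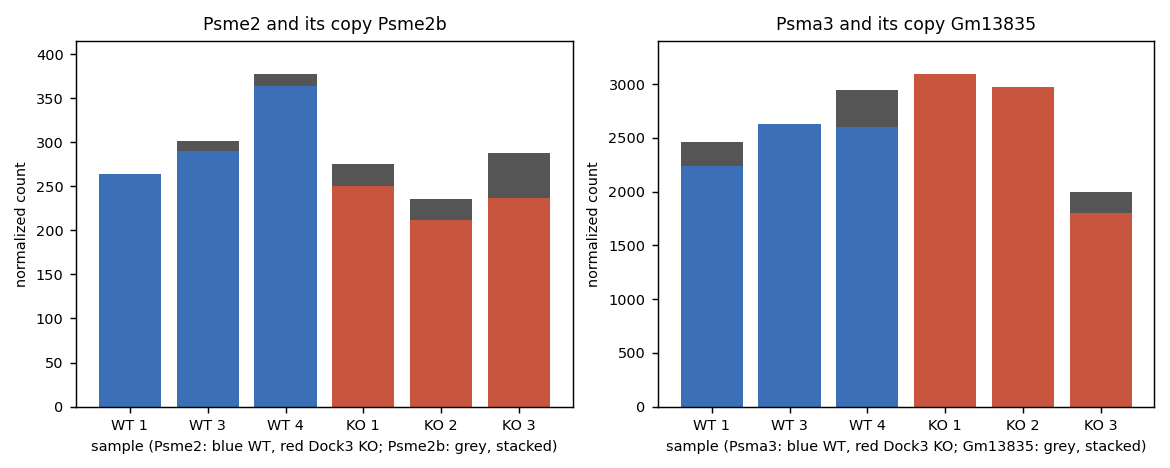
Normalized counts (vertical axis, from 0) of Psme2 with Psme2b (left) and of Psma3 with Gm13835 (right) in each sample, the copy stacked in grey on the gene in blue (WT) or red (Dock3 KO). Psme2b is listed at 0 in WT replicate 1 and reaches 50.6 in Dock3 KO replicate 3; Gm13835 is listed at 0 in WT replicate 3 and in Dock3 KO replicates 1 and 2.

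Psmf1 had the smallest p of the proteasome genes. It (ENSMUSG00000032869) encodes PI31, which inhibits the 20S core in the test tube, and lies on chromosome 2 (151715812 to 151744186, minus strand). It measured 373, 344 and 299 normalized counts in WT muscle, with 237, 224 and 244 in Dock3 KO muscle. Every Dock3 KO sample lies below every WT sample, replicate 3 included. Psmf1 averaged 339 ± 37.0 in WT muscle and 235 ± 10.05 in Dock3 KO muscle (SD, n = 3), a log2 difference of -0.52 (standard error 0.159, 95% interval -0.87 to -0.16, limma). The unadjusted p was 0.00889 and the adjusted p 0.244 (limma), and the exact two-sided permutation p was 0.1, the smallest possible. The difference was below 0 in all 18 alternatives, between -0.79 and -0.45, with adjusted p-values from 0.135 to 0.793 (limma). In all, 5 of the 48 genes had groups that do not overlap, or 10.4%, beside 16.2% of all genes tested. Of these Psmf1, Psme2, Psmc2 and Psmd3 were lower in Dock3 KO, beside 8.65% of all genes, and Psme2b was higher, beside 7.6% of all.

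Other genes of the ubiquitin-proteasome pathway, a list of 44, gave 0 past the threshold of adjusted p under 0.05 (limma), with 25 above 0 and 19 below and a median of 0.01. At an unadjusted p under 0.05 there were 4 of the 44, Ddi2, Akirin2, Zfand5 and Ngly1, against 10.5% of all genes tested. The groups do not overlap for these 4 and for Uba1, the ubiquitin-activating enzyme, against 16.2% of all genes tested. Nfe2l1, the transcription factor that raises proteasome genes when the proteasome is impaired, stood at 7255, 7356 and 6562 normalized counts in the WT muscles, against 6963, 6911 and 7295 in the Dock3 KO muscles (log2 difference 0.00, 95% interval -0.26 to 0.26, limma). Ddi2, the protease that cuts it, measured 1565, 1152 and 1181 in WT muscle, with 1577, 2001 and 1707 in Dock3 KO muscle (log2 difference 0.45, adjusted p 0.323, limma). Ngly1, which removes its sugar chains, stood at 1309, 1096 and 1033 in the WT muscles, against 794, 896 and 970 in the Dock3 KO muscles (log2 difference -0.37, adjusted p 0.390, limma). The groups do not overlap for Ddi2 and Ngly1, in opposite directions.

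Akirin2, which carries proteasomes into the nucleus, measured 417, 403 and 365 in WT muscle, with 479, 552 and 519 in Dock3 KO muscle (log2 difference 0.39, adjusted p 0.347, limma). Zfand5, a stimulator of the 26S proteasome, stood at 4565, 4353 and 5546 in the WT muscles, against 5747, 7118 and 5783 in the Dock3 KO muscles (log2 difference 0.37, adjusted p 0.390, limma). Both have every Dock3 KO value above every WT value. Ube2d1, a ubiquitin-conjugating enzyme, stood at 2737, 3166 and 3262 in the WT muscles, against 2740, 2488 and 2672 in the Dock3 KO muscles (log2 difference -0.21). Rad23b, a shuttle for ubiquitinated proteins, measured 1833, 2032 and 2173 in WT muscle, with 1758, 1893 and 1672 in Dock3 KO muscle (log2 difference -0.18). The groups overlap for both. The difference of the chaperone Pomp was -0.12, and that of Adrm1, a ubiquitin receptor of the 19S particle, was -0.03.

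For the core of the complex, Dock3 KO replicate 3 lay below the other samples, a pattern chosen after the values were seen. For the 30 tested subunits of the 20S rings and the 19S particle, without the immune and thymic forms, the median deviation from each gene's own mean on the log2 scale was -0.04, 0.02 and 0.14 in the WT muscles and 0.12, 0.07 and -0.22 in the Dock3 KO muscles. Dock3 KO replicate 3 was the lowest of all 6 samples for 20 of the 30, and for 21 of the 48 proteasome genes, or 43.8%, beside 16.2% of all genes tested. The 30 summed to 42740 normalized counts in that sample and 48408 to 54800 in the others.

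The same deviation over all genes tested was between -0.0031 and 0.015 in every sample. Over the 44 other pathway genes it was -0.0035 in Dock3 KO replicate 3. For the 8 fibre markers it was -0.13 in that sample and between -0.08 and 0.14 in the others. Their part in the difference was not tested. Of the 44 pathway genes, 11 had their lowest value in Dock3 KO replicate 3, beside 16.2% of all genes tested. Among the 11 were Adrm1 of the 19S particle, the chaperone Pomp and Sem1, which the symbol rule does not take in. Without Dock3 KO replicate 3 the median difference of the 48 genes was 0.04, against -0.05 with it, and with that sample as the only Dock3 KO sample it was -0.19. Dock3 KO replicate 3 is also the Dock3 KO library without the large Gm42418 share. As a share of all values, Gm42418 included, the proteasome genes made up 0.189%, 0.194% and 0.208% of the Dock3 KO values and 0.237% to 0.251% of the WT values. The normalized counts themselves overlapped: the 48 genes summed to 58996 to 64401 in WT and 52386 to 64049 in Dock3 KO.

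**Figure D4:**
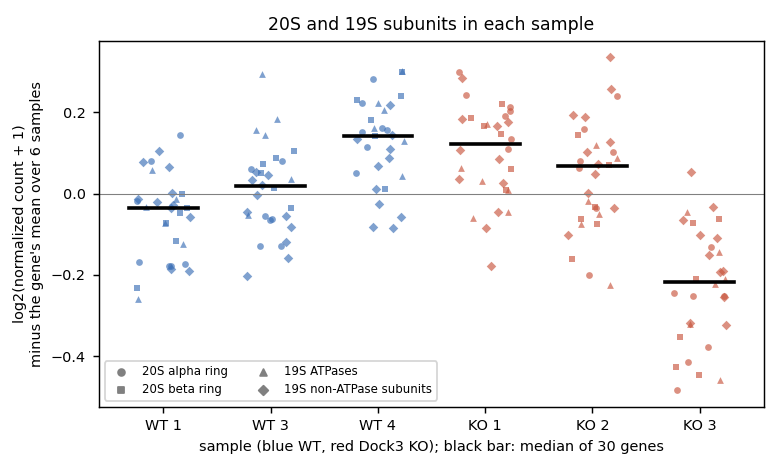
Deviation of each of 30 subunits of the 20S rings and the 19S particle from its own mean over the 6 samples (vertical axis, log2 of normalized count + 1), by sample, with the median as a black bar. The medians of 5 samples lie between -0.04 and 0.14 and that of Dock3 KO replicate 3 at -0.22.

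The promoters, from 250 bases before to 50 after the start in RefSeq (GRCm38.p6), were found for 41 of the 49 genes. The antioxidant response element that Nfe2l1 binds, searched as TGACNNNGC on both strands, was found for 5 of the 41 (Psmb6, Psmc6, Psmd9, Psmd12 and Psme4), or 12.2%, beside 13.99% of 27025 genes. The gamma-interferon activation site, searched as TTCNNNGAA on both strands, was found for 3 (Psmb8, Psmd2 and Psmg1), or 7.32%, beside 9.55% of all genes. A shortened interferon-stimulated response element, chosen after a longer form had been searched and looked for as GAAANNGAA on both strands, was found for 7 (Psmb3, Psmb4, Psmc2, Psmd4, Psmd9, Psme1 and Psmg4), or 17.1%, beside 9.76% of all genes. The CCAAT box, searched on both strands, was found for 15, or 36.6%, beside 41.1% of all genes. These letters can overlap between motifs, and a match is a description of the sequence only.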

How the data were processed

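The authors deposited 1 table of normalized counts for 6 samples, treated here as a signal per gene. Per the submitters' processing notes the tools were FastQC, Trim Galore 0.4.5, Salmon 0.12.0, DESeq2 1.22.1 and R 3.5.3 and the builds mm10 and GRCm38, with no role or order stated. The annotation and the use of strand are not given in the sources used here. All 54393 gene identifiers were found in GENCODE M21 (GRCm38), the source of symbols, positions and lengths. Genotype was taken from the genotype label and replicate numbers from the titles.

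Whole reads were not recovered: 26.5% to 33.0% of values under 12 were multiples of a sample's most frequent low value (tolerance 0.02 of it). No count test was run, and the precision rests on 3 samples a group. Genes with a mean of at least 10 were compared on log2(normalized count + 1) with limma 3.58.1 (trend in the prior variance) in R 4.3.3, without covariates. P-values were adjusted by Benjamini-Hochberg over 16031 genes, with a threshold of 0.05. The fit was tested on simulated data. Single ratios were compared by exact permutation (scipy 1.17.1).

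Copies were searched with blastn 2.17.0 (at least 95% identity over 100 bases and 50% of the shorter transcript). The members and lists were chosen with earlier results of these data known. Values were named for the 6 genes with the smallest p in each direction, the catalytic subunits, activators, inhibitor and 20S chaperones, and 3 pathway genes in each direction; other genes were named after their values were seen. Of the pathway list, 4 of 48 symbols written were not found; 3 of these are other names of listed genes. A marker gene and a sequence comparison are not reported here.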

Additional observations from a re-analysis of the deposited data

How the results depend on the processing

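No proteasome gene and no pathway gene passed under any of 18 settings: other pseudocounts, filters, scalings and prior variances, the replicate block, the level of Gm42418 as a covariate, only protein-coding genes (chosen after seeing the data), each sample left out, and Dock3 KO replicate 3 alone against WT, where the spread comes from the WT samples and the lone sample is assumed to vary like them. The count over all genes was 165 and moved to 49 with Dock3 KO replicate 3 alone, 57 with the Gm42418 covariate, 104 without a trend in the prior variance and 104 with protein-coding genes only; with each sample left out it was 98 to 159. The median of the proteasome genes was -0.05 and moved to -0.19 with Dock3 KO replicate 3 alone, -0.19 with the Gm42418 covariate and -0.33 with the same total, where all genes moved too; relative to all genes it stayed between -0.19 and 0.05. With each sample left out it was -0.13 to 0.04. Gm42418 was high only in Dock3 KO replicates 1 and 2. The covariate fit and the fit of replicate 3 alone are therefore close to the same comparison and are not separate evidence. The cause of the shifts was not tested.

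Some differences changed sign. With the same total, which moved the median of all genes to -0.28, these were Psmd14 -0.17, Psmd6 -0.031, Psmd8 -0.090, Psme1 -0.27, Psme3 -0.20, Psme4 -0.14 and Psmg3 -0.11, all above that median. With the Gm42418 covariate they were Psmd14 -0.027, Psmd6 -0.17, Psme1 -0.11, Psme3 -0.090 and Psmg1 0.15. With Dock3 KO replicate 3 alone they were Psmd14 -0.0093, Psmd6 -0.13, Psme1 -0.11, Psme3 -0.081, Psmg1 0.13 and the Psmb10 to Psmb7 ratio 0.32. Quantile normalization gave Psmg1 0.058, and adding copies gave Psma3 -0.016. With each sample left out the ranges were -0.17 to 0.071 for Psmb6, -0.26 to 0.032 for Psmb7, -0.11 to 0.10 for Psme1, -0.0029 to 0.16 for Psme3, -0.042 to 0.29 for Psme4, -0.074 to 0.11 for Psmg1, -0.036 to 0.34 for Psmg3, -0.37 to 0.071 for the Psmb10 to Psmb7 ratio and -0.82 to -0.11 for the Psmb9 to Psmb6 ratio.

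With the replicate block the count over all genes was 127, the median was -0.04, and Psmb6 stood at 0.078, Psme1 at -0.015, Psme4 at -0.071, Psmg1 at 0.21 and Psmg3 at -0.029. Only numbers 1 and 3 occur in both genotypes. WT replicate 4 and Dock3 KO replicate 2 therefore add nothing to the difference in this fit, which is no check on all 6 samples. Same-numbered samples of the genotypes share only a number: their deviations correlated at 0.0649 and 0.0066 across genes. With 3 samples a group, the 5 proteasome genes with the widest intervals all had group means of 68.0 normalized counts or less.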

Other observations

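By a likeness rule set with the gene lists, the genes outside the proteasome list whose log2 values most resembled the median profile of the 48 genes over the 6 samples were Lmo4 and Trappc6b (Pearson's r 0.99 each) and Sdhaf3 (0.98). The next 7, down to 0.98, were Pole4, Gimap5, Cpa3, Ak6, Maged2, Igbp1 and Bsg. An r above 0.9 was found for 180 of 15983 genes. The values share their libraries and scaling, so this is a description of the 6 samples only.

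Near-identical copies were found for 11 of the proteasome genes. Apart from Psme2, its copy Psme2b, and Psma3, the highest share was that of A730017L22Rik on chromosome 2, which reached 6.03% of the value of Psmd11 in a sample and matches it on the opposite strand. For the other 7 genes the share was at most 0.514%.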
